A study of Homo sapiens and Mus musculus with 27 samples.

Results

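The aldo-keto reductases are enzymes that use NADPH to reduce aldehydes and ketones to alcohols. Described here are 7 of their human genes, AKR1B10, AKR1B1, AKR1C1, AKR1C2, AKR1C3, AKR1A1 and AKR7A2, out of 78932 features in each human count table, and their mouse orthologues Akr1a1, Akr1b3 and Akr7a5, out of 25239 mouse genes. The members were chosen by name, with no threshold, and with earlier results of these data known, so their values are given as a description. An adjusted p below says how large a difference was against the spread between libraries in a fit over all genes, and is not independent evidence for the choice.

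The study measured poly(A) RNA in 27 libraries, 9 groups of 3. Cells labelled HCC1937, a human triple-negative breast carcinoma line, were given vehicle, TM at 10 µM (a name the labels do not expand), or AMD3100 at 10 µM. AMD3100 is plerixafor, an antagonist of the chemokine receptor CXCR4. MDA-MB-231, a mesenchymal human triple-negative line, was given vehicle, or the proteasome inhibitor bortezomib at 10 nM combined with 1 of the same agents, TM or AMD3100, at 10 µM. 4T1 tumours, from a mouse mammary carcinoma line implanted into Balb/c mice, were taken after vehicle, bortezomib at 1 mg/kg every 4 days with TM at 0.05 mg/ml in drinking water, or the same bortezomib with AMD3100 at 5 mg/kg every 2 days. No group received bortezomib alone, and the HCC1937 arms received none, so bortezomib and its partner, or bortezomib and the cell line, cannot be told apart. The sources used here give no treatment times and no animal ages. Both arms of a line are compared with the same vehicle libraries.

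Totals ran from 35981504 to 50735374 counts a library. The HCC1937 library of AMD3100 replicate 1 stood apart, with 19.9% mitochondrial counts against 10.5 to 11.6% in the other 8 libraries of that line and 20639 genes with a count against at least 29335. Most results that rest on it are therefore also given without it, but not the correlations between genes. In MDA-MB-231 the 3 vehicle libraries stood apart from the 6 treated ones, with 3.94 to 4.06% mitochondrial counts against 2.67 to 3.25%, at least 25020 genes with a count against at most 23228, and TMM scaling factors of 1.14 to 1.25 against 0.874 to 0.945; their part in the MDA-MB-231 changes was not tested. Several defining epithelial markers were low in both human lines, while the keratins KRT8 and KRT18 were not. In HCC1937 vehicle libraries EPCAM averaged 0.0565, CDH1 0.656, KRT5 0.0343 and KRT14 0.0319 CPM (the read count scaled to library size), with KRT8 at 1842 CPM and the mesenchymal genes VIM at 375 and TWIST2 at 13.2 CPM. In MDA-MB-231 vehicle libraries EPCAM averaged 2.43, CDH1 0.0238 and KRT14 0.0554 CPM, KRT5 and TWIST2 had 0 counts, and KRT8 stood at 334 and VIM at 943 CPM. These genes were picked from 2 lists of 6 markers, and the epithelial list and its sum also hold KRT18. In HCC1937 vehicle libraries the epithelial list summed to 2426 to 2526 CPM and the mesenchymal list to 406 to 417 CPM. Between vehicle groups, 3 of 5 tested mesenchymal genes were called higher in MDA-MB-231, FN1 by 6.90 and SPARC by 2.53 on the log2 scale. The other 2, TWIST2 among them, were lower there. Of 5 tested epithelial genes 3 were lower there, KRT8 and KRT18 among them, and 1, EPCAM, was higher. Whether the cells are the labelled line was not tested. The labels call replicates biological without saying whether they were separate cultures or animals, so a p-value reflects only how much these libraries vary, which may be technical.

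As background, AKR1B1 (aldose reductase) turns glucose into sorbitol in the polyol pathway, and its close relative AKR1B10 reduces retinaldehyde and lipid-derived aldehydes. AKR1C1, AKR1C2 and AKR1C3 are hydroxysteroid dehydrogenases: AKR1C1 inactivates progesterone, AKR1C2 inactivates dihydrotestosterone, and AKR1C3 forms testosterone and prostaglandin F. AKR1A1 (aldehyde reductase) and AKR7A2 (aflatoxin aldehyde reductase) are broadly expressed detoxifying enzymes. AKR1B10 and the AKR1C genes are textbook targets of NRF2, a transcription factor held down by KEAP1 and the proteasome, which binds antioxidant response elements together with small MAF proteins.

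The sequences show which members a short read can tell apart. In GRCh38 (GENCODE release 29) AKR1C1 lies at chr10:4963253-4983283 on the plus strand, AKR1C2 at chr10:4987400-5018031 on the minus strand and AKR1C3 at chr10:5035354-5107686 on the plus strand. Their coding sequences are 98.04% identical between AKR1C1 and AKR1C2 and 91.43% between AKR1C1 and AKR1C3. The first 120 coding bases follow, with AKR1C4 (chr10:5195462-5218949, plus strand) as the remaining close relative; capitals mark bases that differ from AKR1C1.
AKR1C1: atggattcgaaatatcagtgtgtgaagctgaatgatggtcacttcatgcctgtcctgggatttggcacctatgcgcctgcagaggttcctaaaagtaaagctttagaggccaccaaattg
AKR1C2: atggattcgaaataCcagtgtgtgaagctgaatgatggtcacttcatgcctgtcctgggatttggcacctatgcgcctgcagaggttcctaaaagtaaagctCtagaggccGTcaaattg
AKR1C3: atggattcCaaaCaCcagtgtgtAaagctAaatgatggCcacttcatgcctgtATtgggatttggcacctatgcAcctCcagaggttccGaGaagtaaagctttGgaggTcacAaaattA
AKR1C4: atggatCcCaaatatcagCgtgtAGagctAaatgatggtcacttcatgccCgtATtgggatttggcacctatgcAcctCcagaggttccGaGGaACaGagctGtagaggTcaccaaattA
AKR1C2 differs from AKR1C1 at 4 of these bases, AKR1C3 at 16 and AKR1C4 at 20. Of all 150-base stretches in the annotated transcripts, 10.05% of those of AKR1C1 occur also in AKR1C2, 13.68% of those of AKR1C2 occur in another gene, and 0.444% of those of AKR1C3 do. Counts of AKR1C1 and AKR1C2 are therefore uncertain as a split between copies, and the changes between groups are also given with the counts of AKR1C1 to AKR1C4 summed. The sum also holds AKR1C3, of which few stretches are shared, so it does not check that split alone.

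AKR1B10 (chr7:134527592-134541408, plus strand) has its own close relative, AKR1B15 (chr7:134549136-134579875, plus strand), with 85.85% coding identity; identity with AKR1B1 (chr7:134442350-134459284, minus strand) is 76.1%. The last 120 coding bases are shown because the copies are easiest to compare there; capitals mark bases that differ from AKR1B10.
AKR1B10: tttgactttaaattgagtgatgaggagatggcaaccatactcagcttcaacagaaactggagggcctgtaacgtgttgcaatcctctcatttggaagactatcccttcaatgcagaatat
AKR1B15: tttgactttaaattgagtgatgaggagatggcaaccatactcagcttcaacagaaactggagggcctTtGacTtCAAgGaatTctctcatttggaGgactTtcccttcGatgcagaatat
AKR1B1: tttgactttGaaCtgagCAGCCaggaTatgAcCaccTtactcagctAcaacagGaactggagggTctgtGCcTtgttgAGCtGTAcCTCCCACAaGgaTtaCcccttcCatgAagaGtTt
AKR1B15 differs at 11 of these bases and AKR1B1 at 38, and no 150-base stretch of AKR1B10 or AKR1B1 occurs in another gene. None was shared for AKR1A1 (chr1:45550543-45570049, plus strand) or AKR7A2 (chr1:19303965-19312146, minus strand) either.

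AKR1B10 gave the widest range of levels among the members. In MDA-MB-231 it had 10, 2 and 12 counts in the 3 vehicle libraries (0.178, 0.0371 and 0.230 CPM). Bortezomib with TM gave 745, 637 and 591 counts (16.97, 17.1 and 13.2 CPM). Bortezomib with AMD3100 gave 493, 502 and 490 counts (12.99, 12.5 and 12.99 CPM). Every treated library thus lay far above every vehicle library, from a vehicle level of a few reads. The log2 change was 6.71 (SE 0.358, adjusted p = 7.26e-08) with TM as the partner and 6.41 (SE 0.356, adjusted p = 1.19e-07) with AMD3100, by edgeR's quasi-likelihood test with Benjamini-Hochberg adjustment, which applies to every adjusted p here. Leaving out 1 library at a time, the first change ran from 6.25 to 7.14 and the second from 5.96 to 6.85, on the log2 scale.

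In HCC1937, AKR1B10 had 48, 92 and 52 counts in vehicle libraries (1.24, 2.20 and 1.28 CPM). TM gave 145, 186 and 197 counts (3.24, 4.77 and 4.30 CPM), all above vehicle. AMD3100 gave 70, 45 and 63 counts (2.06, 1.10 and 1.63 CPM), within the vehicle range or just below it. AKR1B10 rose with TM by 1.38 on the log2 scale (SE 0.346, adjusted p = 0.0467), and was lower with AMD3100 than with TM, at -1.36 (SE 0.346, adjusted p = 0.0454). Both calls were close to the threshold of 0.05: each of the 6 fits without 1 vehicle or TM library ended the first (adjusted p up to 0.202), while without AMD3100 replicate 1, a library of neither group, it was 1.38 with adjusted p = 3.38e-05. The second call was likewise lost without any 1 library except AMD3100 replicate 1 (adjusted p up to 0.178); without that library it was -1.57 (adjusted p = 5.83e-05). Against vehicle, AMD3100 gave 0.02 (SE 0.345, adjusted p = 0.991), and -0.19 (adjusted p = 0.789) without replicate 1.

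Adding the reads of AKR1B15 left the called AKR1B10 changes in place. AKR1B15 itself had 0 counts in the 3 MDA-MB-231 vehicle libraries, and 3, 9 and 6 with bortezomib and TM. The summed pair changed by 6.72 (adjusted p = 7.20e-08) and 6.42 (adjusted p = 1.18e-07) in the MDA-MB-231 arms and by 1.33 (adjusted p = 0.0199) with TM in HCC1937, on the log2 scale.

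**Figure D1:**
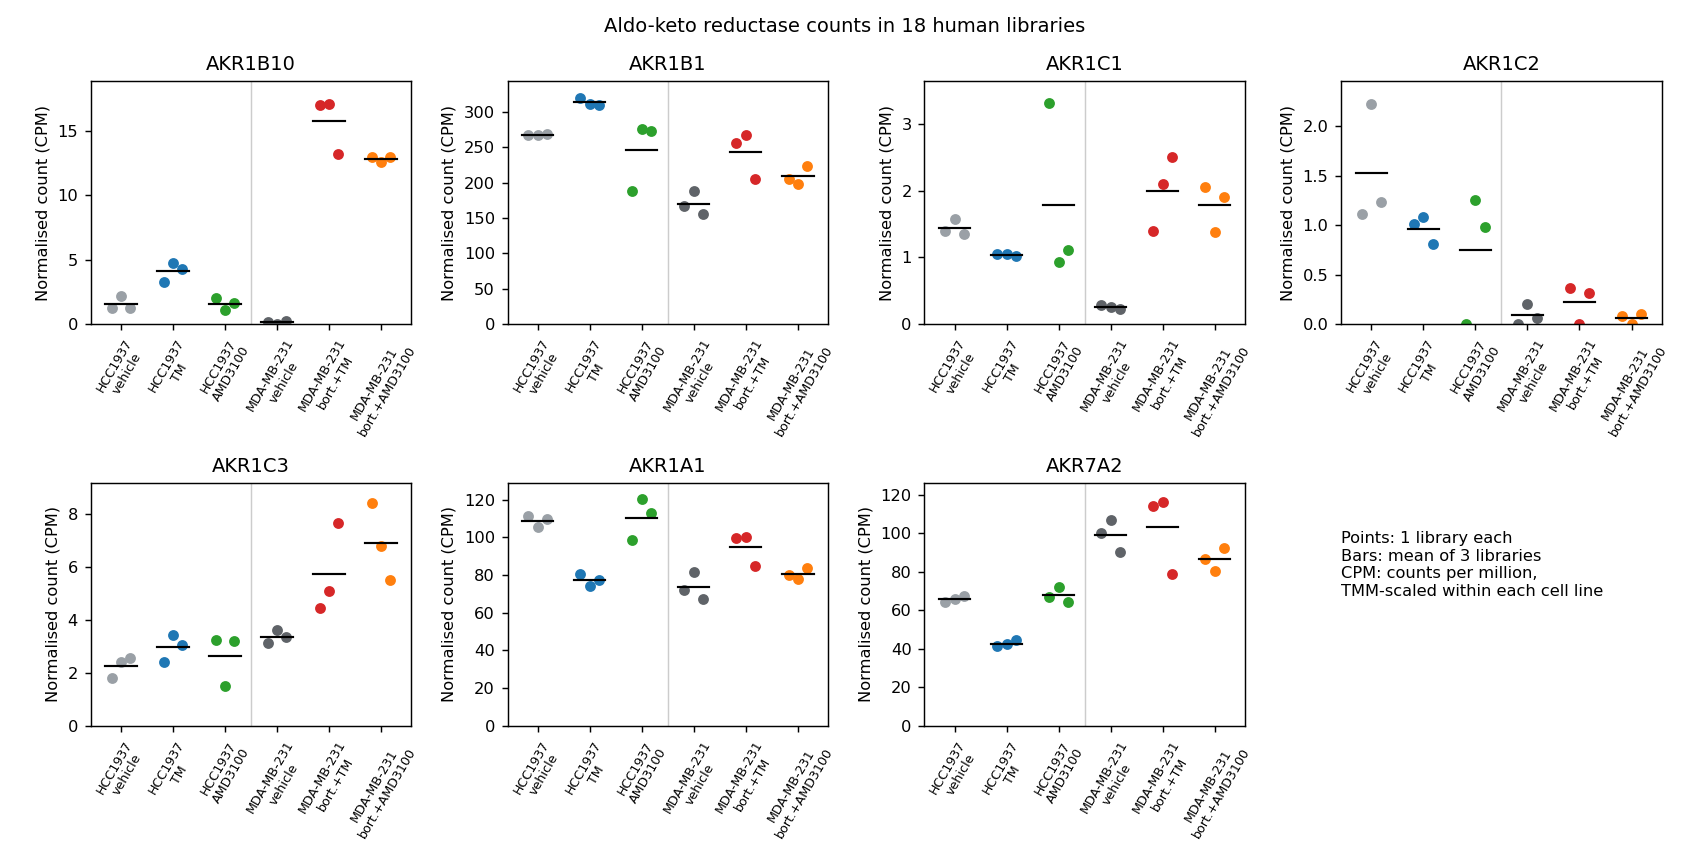
Normalised count (CPM, linear axes from 0) of each member in 18 human libraries; points are libraries and bars are means of 3, scaled within each cell line, so heights across the grey line are not matched. AKR1B10 sits at or below 0.230 CPM in MDA-MB-231 vehicle libraries and at 12.5 CPM or more in the 6 treated ones.

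AKR1B1, the aldose reductase, moved far less than its relative AKR1B10. Vehicle libraries of MDA-MB-231 had 167, 188 and 155 CPM, bortezomib with TM gave 255, 267 and 206 CPM, and bortezomib with AMD3100 gave 205, 198 and 224 CPM. All 6 treated libraries lay above the vehicle libraries. AKR1B1 rose by 0.51 on the log2 scale with TM as the partner (SE 0.118, adjusted p = 0.00331). With AMD3100 the difference was 0.29 (SE 0.118, adjusted p = 0.0587) and was not called; without vehicle replicate 2 it was called, at adjusted p = 0.0315. In HCC1937 the vehicle libraries had 268, 267 and 268 CPM, TM gave 319, 312 and 309 CPM, and AMD3100 gave 189, 276 and 273 CPM, the 189 being replicate 1. The TM groups did not overlap, and the difference was 0.23 (SE 0.140, adjusted p = 0.434), or 0.23 with adjusted p = 1.37e-05 without AMD3100 replicate 1. AMD3100 against TM was -0.35 (adjusted p = 0.166), and -0.17 (adjusted p = 0.00165) without that library.

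Among the steroid-converting members, AKR1C1 stood at 16, 14 and 12 counts in MDA-MB-231 vehicle libraries (0.285, 0.260 and 0.230 CPM). It reached 61, 78 and 112 counts (1.39, 2.09 and 2.499 CPM) with bortezomib and TM, and 78, 55 and 72 counts (2.06, 1.37 and 1.91 CPM) with bortezomib and AMD3100. Both treated groups lay above vehicle and overlapped each other. AKR1C1 rose by 2.93 (SE 0.328, adjusted p = 1.74e-05) and 2.77 (SE 0.329, adjusted p = 3.46e-05) on the log2 scale, and no single library left out ended either call.

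AKR1C3, the testosterone-forming member, rose less steeply than AKR1C1. Its vehicle libraries had 175, 195 and 174 counts (3.12, 3.62 and 3.33 CPM), against 195, 189 and 343 counts (4.44, 5.07 and 7.65 CPM) with TM and 318, 271 and 208 counts (8.38, 6.77 and 5.51 CPM) with AMD3100. Both treated groups lay above vehicle in CPM, overlapped each other and were spread more widely than vehicle. AKR1C3 rose by 0.77 (SE 0.239, adjusted p = 0.0177) and by 1.04 (SE 0.239, adjusted p = 0.00384). The first call was lost without vehicle replicate 1 or TM replicate 3 (adjusted p up to 0.0644); leaving out TM replicate 3 lowered the change to 0.52.

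AKR1C2, which inactivates dihydrotestosterone, did not pass the low-count filter of the edgeR fit within MDA-MB-231. It had 0, 11 and 3 counts with vehicle, 16, 0 and 14 with bortezomib and TM, and 3, 0 and 4 with bortezomib and AMD3100. With a count of 0 beside 14 or 16 in 1 group, its direction could not be told. DESeq2 gave 1.43 (SE 1.40, adjusted p = 0.464) with TM and -0.47 (SE 1.47, adjusted p = 0.854) with AMD3100. With AKR1C1 to AKR1C4 summed, the change was 1.10 (SE 0.226, adjusted p = 0.00154) with TM and 1.23 (SE 0.226, adjusted p = 0.000847) with AMD3100, smaller than for AKR1C1 alone. AKR1C3 is most of that sum: with both lines scaled together, it averaged 4.12 of the 4.55 CPM summed in MDA-MB-231 vehicle libraries.

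None of the 3 AKR1C members was called in HCC1937, with or without AMD3100 replicate 1. AKR1C1 counts were 54, 66 and 55 in vehicle libraries against 47, 41 and 47 under TM (log2 difference -0.47, SE 0.481, adjusted p = 0.692). AKR1C2 counts were 43, 93 and 50 against 45, 42 and 37 (-0.66, SE 0.965, adjusted p = 0.805). AKR1C3 counts were 70, 101 and 103 against 107, 134 and 140 (0.39, SE 0.337, adjusted p = 0.607). In CPM, AKR1C1 and AKR1C2 did not overlap between these groups and AKR1C3 did; with AKR1C1 to AKR1C4 summed the difference was -0.06 (SE 0.246, adjusted p = 0.946).

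The AMD3100 libraries of HCC1937 divided the copies unevenly. Replicate 1 had 113 counts of AKR1C1 and 0 of AKR1C2, whereas replicates 2 and 3 had 38 and 43 of AKR1C1 with 51 and 38 of AKR1C2. AKR1C3 stood at 3.23, 1.496 and 3.18 CPM in the same 3 libraries. With replicate 1 included, the sum of the copies differed from vehicle by -0.02 (SE 0.246, adjusted p = 0.989). On the joint scale of both lines that sum averaged 4.12 CPM with replicate 1 and 3.58 CPM without it, against 4.17 CPM in vehicle. AKR1C1 alone against vehicle was 0.31 (adjusted p = 0.907) with replicate 1 and -0.48 (adjusted p = 0.454) without it.

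**Figure D2:**
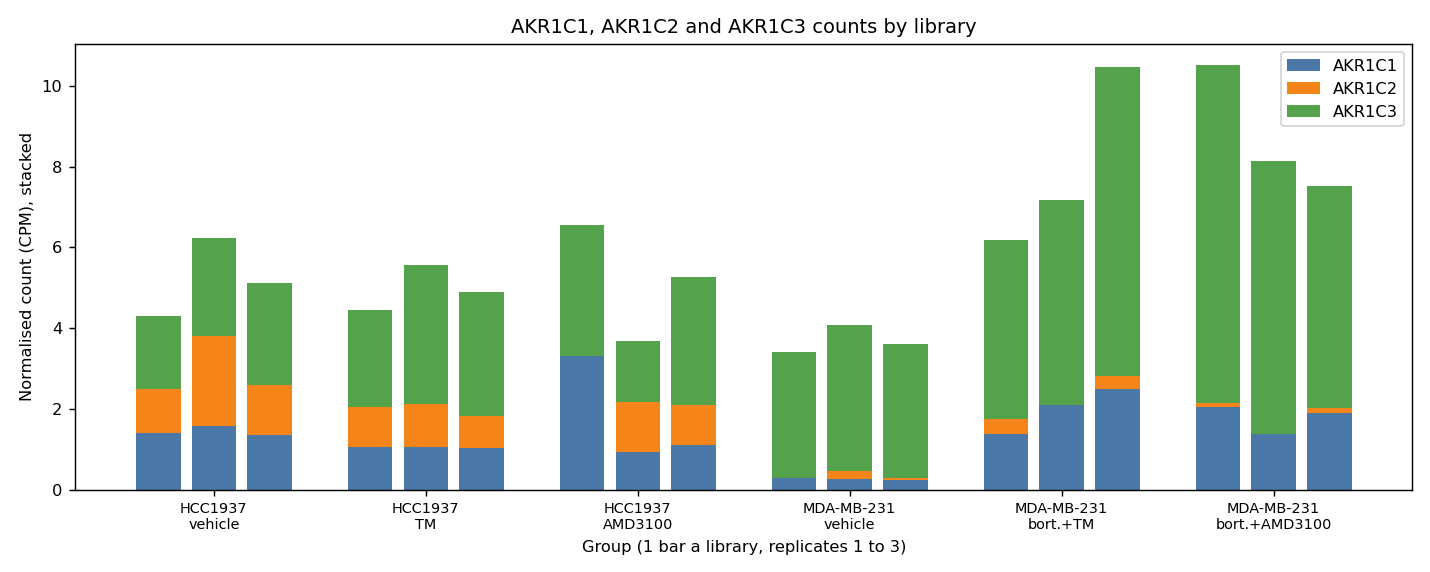
Stacked normalised counts (CPM) of AKR1C1, AKR1C2 and AKR1C3, 1 bar for each of 18 human libraries in replicate order, scaled within each line. AKR1C2 makes up a visible part of HCC1937 bars except AMD3100 replicate 1, where it is 0, and little of the MDA-MB-231 bars.

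AKR1A1 and AKR7A2, the broad detoxifying reductases, moved the other way from AKR1B10 in HCC1937 under TM. AKR1A1 had 111, 106 and 110 CPM with vehicle, 80.7, 74.2 and 77.6 CPM with TM, and 98.6, 120.2 and 112.9 CPM with AMD3100. AKR7A2 had 64.5, 65.7 and 67.6 CPM with vehicle, 41.3, 42.4 and 44.4 CPM with TM, and 66.8, 72.3 and 64.2 CPM with AMD3100. In both genes every TM library lay below all 6 others. AKR1A1 fell by 0.49 on the log2 scale (SE 0.100, adjusted p = 0.0215) and AKR7A2 fell by 0.63 (SE 0.0891, adjusted p = 0.00484). The AKR7A2 call held in all 7 fits that left out 1 library (adjusted p up to 0.0424); the AKR1A1 call was lost without any 1 vehicle or TM library (adjusted p up to 0.127). Without AMD3100 replicate 1 the adjusted p was 4.44e-09 for AKR1A1 and 7.66e-10 for AKR7A2, at log2 changes of -0.49 and -0.63.

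Directly against TM, AMD3100 gave higher AKR1A1 (0.51, SE 0.100, adjusted p = 0.0173) and AKR7A2 (0.67, SE 0.0892, adjusted p = 0.00405). Without AMD3100 replicate 1 these were 0.61 (adjusted p = 6.79e-10) and 0.70 (adjusted p = 8.85e-10). Leaving out any 1 TM library or AMD3100 replicate 2 ended the call for AKR1A1 (adjusted p up to 0.108). Against vehicle, AMD3100 gave 0.02 for AKR1A1 and 0.04 for AKR7A2, with adjusted p = 0.963 and 0.925; without replicate 1 these were 0.117 and 0.0697, with adjusted p = 0.213 and 0.598.

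In MDA-MB-231 AKR1A1 rose in the TM arm and AKR7A2 was called in neither arm. AKR1A1 had 72.2, 81.7 and 67.4 CPM with vehicle, 99.6, 100.01 and 84.9 CPM with bortezomib and TM, and 80.0, 77.9 and 83.8 CPM with bortezomib and AMD3100. It rose by 0.36 (SE 0.108, adjusted p = 0.0147) in the TM arm, a call lost without vehicle replicate 1, vehicle replicate 3 or TM replicate 2 (adjusted p up to 0.0633), and differed by 0.13 (adjusted p = 0.361) in the AMD3100 arm. AKR7A2 had 100, 107 and 90.4 CPM with vehicle, 114, 117 and 79.0 CPM with TM, and 86.5, 80.6 and 92.6 CPM with AMD3100. The AKR7A2 groups overlapped, with differences of 0.06 (SE 0.143, adjusted p = 0.767) and -0.20 (SE 0.143, adjusted p = 0.284).

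**Figure D3:**
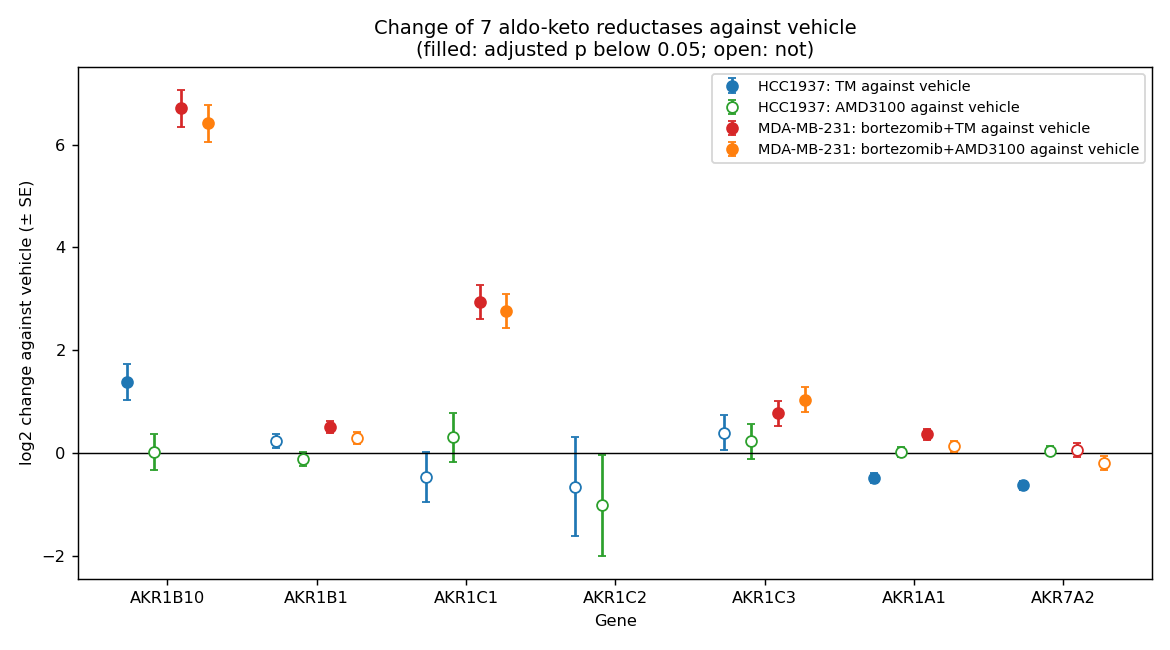
Log2 change against vehicle (± SE) of the members in 2 treatments of each human line; filled points passed an adjusted p of 0.05 and open points did not. AKR1B10 and AKR1C1 rise in both MDA-MB-231 arms, and AKR1A1 and AKR7A2 lie below 0 with TM in HCC1937.

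Counted over the members, TM in HCC1937 raised 1 of 7 and lowered 2, where 2.96% of 19461 tested genes were called higher and 4.11% lower. Without AMD3100 replicate 1 the same comparison called 2 members higher and 2 lower, beside 19.4% of 20398 genes higher and 21.4% lower. AMD3100 against vehicle called no member among 0% of genes (951 genes at an unadjusted p under 0.05, and 16 by DESeq2); without replicate 1 it called 1661 genes (5.39% higher and 2.76% lower) and still no member. AMD3100 against TM called 2 members higher and 1 lower, against a background of 4.61% higher and 3.6% lower; without replicate 1 it called 2 higher and 2 lower, beside 19.7% and 16.8%. In MDA-MB-231, bortezomib with TM raised 5 of 6 tested members and lowered 0, where 24.1% of 16498 genes were called higher and 27.6% lower. Bortezomib with AMD3100 raised 3 of 6 and lowered 0, beside 22.3% higher and 24.2% lower. With so many genes called in these arms, a call by itself sets no member apart. Epithelial markers also moved there: KRT14 rose by 5.54 and 5.45 and KRT18 by 0.91 and 0.71, while EPCAM fell by 0.85 and 0.75, in the TM and AMD3100 arms. KRT14 rose from a very low vehicle level. The summed epithelial markers stood at 412 to 533 CPM with vehicle, 495 to 693 with TM and 527 to 600 with AMD3100. Of the mesenchymal markers FN1 fell by 0.68 in the TM arm and ZEB1 rose by 1.01 in the AMD3100 arm. In HCC1937 under TM the summed epithelial markers stood at 1874 to 1919 CPM against 2426 to 2526 CPM with vehicle, though the median log2 change of the 4 tested was 0.46, and the summed mesenchymal markers at 317 to 326 against 406 to 417 CPM. The part of these shifts in the members' changes was not tested.

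The MDA-MB-231 arms were not distinguished by any member. The edgeR test called 0% of genes between them (1464 at an unadjusted p under 0.05, none of them a member, and 51 by DESeq2). AKR1B10 was lower with AMD3100 than with TM in every library when scaled within the line (at most 12.99 against at least 13.2 CPM), but not on the joint scale of both lines, where the arms overlapped; the log2 difference was -0.29 (SE 0.250, adjusted p = 0.746). AKR1A1 likewise did not overlap between the arms within the line and overlapped on the joint scale. AKR1C1 differed by -0.16 (SE 0.286), AKR1C3 by 0.27 (SE 0.236), AKR1B1 by -0.22 (SE 0.118), AKR1A1 by -0.24 (SE 0.108) and AKR7A2 by -0.25 (SE 0.143), with adjusted p between 0.560 and 0.894. These tests do not show that the partners act alike.

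The vehicle libraries of the 2 lines differed in 5 of 7 members, where 29.5% of 21590 genes were called higher and 33% lower. With so many genes called, that count does not set the members apart. In a joint fit of 18 human libraries, AKR7A2 was higher in MDA-MB-231 by 1.21 (SE 0.145, adjusted p = 1.05e-06) and AKR1C3 by 1.19 (SE 0.287, adjusted p = 0.00157), on the log2 scale. AKR1B10 was lower by -2.77 (SE 0.410, adjusted p = 1.30e-05), AKR1C1 by -1.85 (SE 0.442, adjusted p = 0.00147) and AKR1C2 by -3.49 (SE 1.23, adjusted p = 0.0201). The AKR1C2 call was lost without HCC1937 vehicle replicate 2, MDA-MB-231 vehicle replicate 1 or replicate 3 (adjusted p up to 0.0720). The summed AKR1C copies differed by 0.13 (SE 0.235, adjusted p = 0.656) while AKR1C1 and AKR1C2 were each lower and AKR1C3 higher. Of that sum AKR1C3 averaged 4.12 of 4.55 CPM in MDA-MB-231 vehicle and 1.80 of 4.17 CPM in HCC1937 vehicle. AKR1A1 (0.06) and AKR1B1 (-0.03) were not called, at adjusted p = 0.696 and 0.849. The median log2 difference over all genes was -0.24.

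On the joint scale the order of AKR1B10 was MDA-MB-231 with bortezomib and TM (20.3 CPM ± 3.44 SD, n = 3), MDA-MB-231 with bortezomib and AMD3100 (15.9 ± 0.770), HCC1937 with TM (3.30 ± 0.630), HCC1937 with AMD3100 (1.27 ± 0.373), HCC1937 vehicle (1.26 ± 0.437) and MDA-MB-231 vehicle (0.184 ± 0.125). Neighbours in that order overlapped between the MDA-MB-231 arms and between HCC1937 AMD3100 and vehicle, and were apart elsewhere; without AMD3100 replicate 1 the HCC1937 AMD3100 mean was 1.09 CPM. AKR1A1 was lowest in HCC1937 with TM (62.3 ± 2.59 CPM), below all other groups, which ran from 87.0 to 122 CPM and overlapped each with its neighbour. AKR7A2 was likewise lowest there (34.3 ± 1.24 CPM), then 52.6 and 54.1 CPM in HCC1937 vehicle and AMD3100, and 108 to 133 CPM in the MDA-MB-231 groups, apart from every HCC1937 group. AKR1C3 ran from 1.80 CPM in HCC1937 vehicle to 8.52 CPM in MDA-MB-231 with bortezomib and AMD3100, with every MDA-MB-231 group above every HCC1937 group. For AKR1B1 the group means lay between 196 and 312 CPM and only HCC1937 TM and HCC1937 vehicle, as neighbours, did not overlap. The lowest of these means was HCC1937 AMD3100, which averaged 220 CPM without replicate 1, between HCC1937 TM and vehicle. AKR1C1 was lowest in MDA-MB-231 vehicle (0.317 ± 0.0328 CPM), then HCC1937 with TM (0.839 ± 0.0120 CPM), and highest in MDA-MB-231 with TM (2.54 ± 0.638 CPM). HCC1937 with AMD3100 averaged 1.42 CPM for AKR1C1, above HCC1937 vehicle (1.15 CPM) and overlapping it; without replicate 1 it averaged 0.817 CPM, just below HCC1937 TM and overlapping that group. Summed over AKR1C1 to AKR1C4, the HCC1937 groups averaged 4.03 to 4.17 CPM, MDA-MB-231 vehicle 4.55 CPM, and the MDA-MB-231 arms 10.2 (TM) and 10.8 CPM (AMD3100). Without replicate 1 the HCC1937 AMD3100 sum averaged 3.58 CPM. AKR1C2 was highest in HCC1937 vehicle (1.22 ± 0.491 CPM), at 0.596 CPM in HCC1937 with AMD3100 (0.893 CPM without replicate 1), and at 0.290 CPM or less in the MDA-MB-231 groups.

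Between genes, levels can be compared only per length. On the joint scale in CPM per kilobase of the table's gene length, group means were 53.7 to 85.4 for AKR1B1, 19.97 to 39.04 for AKR1A1 and 9.15 to 35.4 for AKR7A2. AKR1B10 ran from 0.104 to 11.4, AKR1C3 from 0.460 to 2.18, AKR1C1 from 0.0361 to 0.290 and AKR1C2 from 0.0128 to 0.200. AKR1B1 was thus the highest member in every group, and even at its peak AKR1B10 stayed below it. The length used was 8765 bases for AKR1C1, 6086 for AKR1C2 and 1773 for AKR1B10, with coding sequences of 969, 969 and 948 bases. How far AKR1C1 and AKR1C2 lie below AKR1B10 therefore depends on the length used.

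Whether the changes differed between lines was tested as an interaction. In the TM arms the change in MDA-MB-231 exceeded that in HCC1937 by 5.38 for AKR1B10 (SE 0.515, adjusted p = 1.03e-06), 3.45 for AKR1C1 (SE 0.607, adjusted p = 0.000445), 0.91 for AKR1A1 (SE 0.168, adjusted p = 0.000670) and 0.74 for AKR7A2 (SE 0.203, adjusted p = 0.0126), so 4 of 7 members were called, beside 11.2% of genes higher and 10.4% lower. In the AMD3100 arms it exceeded by 6.42 for AKR1B10 (SE 0.525, adjusted p = 2.10e-07) and 2.49 for AKR1C1 (SE 0.601, adjusted p = 0.00657), 2 of 7 members, beside 9.79% higher and 9.75% lower. Without HCC1937 AMD3100 replicate 1 these were 6.64 and 3.28, with adjusted p = 1.01e-08 and 8.47e-06. None of the leave-one-out fits ended any of these 6 calls. For the summed AKR1C copies the differences were 1.21 (SE 0.333, adjusted p = 0.0134) and 1.27 (SE 0.333, adjusted p = 0.0116).

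Other NRF2 targets were read beside the members, and the part of NRF2 in the members' changes was not tested. In MDA-MB-231, 20 of 25 such genes rose and 1 fell with bortezomib and TM (median log2 change 1.16, against -0.09 over all genes), and 19 rose and 1 fell with bortezomib and AMD3100 (median 0.97, against -0.05). Over all tested genes, 24.1% were called higher and 27.6% lower with TM, and 22.3% and 24.2% with AMD3100. Among them OSGIN1 (an oxidative stress-induced gene) rose by 3.52 and 3.46, FTL (ferritin light chain) by 2.67 and 2.49, and HMOX1 (haem oxygenase) by 2.31 and 2.29. The 1 that fell was ABCC3 (an export pump), by 1.001 and 0.94, named after its values were seen. Of 8 genes of the NRF2 pathway itself, a list that mixes NRF2 and its partners with repressors such as KEAP1, 5 rose with TM and 7 with AMD3100 and none fell. SQSTM1 (p62, which binds KEAP1) rose by 3.48 and 3.30, MAFF by 3.47 and 3.25, and MAFG by 1.87 and 1.85. AKR1B10 changed by more than any of these named genes.

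In HCC1937 under TM the target list was mixed, as the members were, while of the regulators 2 rose and 0 fell. Of the 25 targets 3 rose and 2 fell (median 0.12, against 0.00 over all genes), beside 2.96% of genes called higher and 4.11% lower. FTH1 (ferritin heavy chain) rose by 1.73 and SLC7A11 (cystine transporter) by 1.15, while PIR (pirin) fell by 0.74. The other 2, named after their values were seen, were ABCC3, which rose by 0.45, and TXNRD1 (thioredoxin reductase), which fell by 0.40 and was not called with median-of-ratios scaling. MAFF rose by 2.02 and MAFG by 0.61, and the other 6 regulators were not called. Without AMD3100 replicate 1, 12 targets were called higher and 9 lower, and 7 of 8 regulators higher, beside 19.4% of genes higher and 21.4% lower in that fit. AMD3100 against vehicle called none of these lists' genes with that library, and 8 targets higher and 2 lower without it, beside 5.39% and 2.76% of genes.

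**Figure D4:**
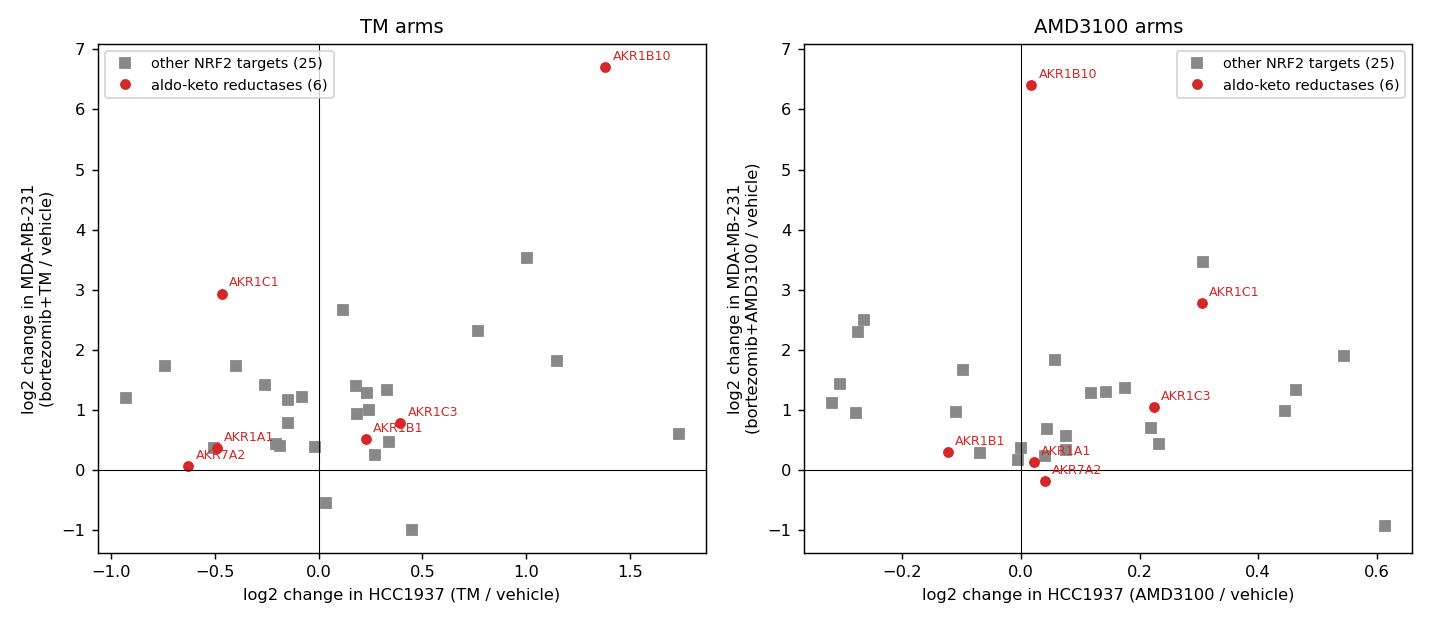
Log2 change in HCC1937 (horizontal) against log2 change in MDA-MB-231 (vertical) for 6 members tested in both lines (circles) and 25 other NRF2 targets (squares), in the TM arms and the AMD3100 arms. AKR1B10 is the highest point in both panels, at 6.71 and 6.41, and most squares lie above 0 on the vertical axis.

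Other carbonyl enzymes and steroid enzymes moved in both directions. In MDA-MB-231 with bortezomib and TM, 7 of 16 tested carbonyl enzymes rose and 6 fell, beside 24.1% and 27.6% of genes; ALDH2 (mitochondrial aldehyde dehydrogenase) rose by 2.24, ADH5 (formaldehyde-clearing alcohol dehydrogenase) by 0.96, and ALDH1B1 fell by 1.22. With AMD3100 as the partner, 5 rose and 6 fell, beside 22.3% and 24.2%. Of 17 steroid, prostaglandin and retinoid enzymes 6 rose and 6 fell with TM, and 4 rose and 6 fell with AMD3100; PTGS2 (cyclooxygenase) rose by 1.61 and 1.64, RDH11 (a retinal reductase) by 0.64 and 0.64. STS (steroid sulfatase) fell by 1.504 with TM.

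In HCC1937 under TM no carbonyl enzyme of 17 tested rose and 3 fell, the direction of AKR1A1 and AKR7A2, beside 2.96% of genes higher and 4.11% lower. SORD, which oxidises the sorbitol that aldose reductase makes, fell by 0.83, ALDH7A1 by 0.72 and CRYZ (a quinone reductase) by 0.60, a call lost with median-of-ratios scaling (-0.57, adjusted p = 0.0509). Without AMD3100 replicate 1, 1 was called higher and 10 lower, beside 19.4% and 21.4% of genes. Against TM, AMD3100 gave 3 higher and 0 lower, beside 4.61% of genes higher and 3.6% lower. Of 21 steroid, prostaglandin and retinoid enzymes 1 rose, PTGES (prostaglandin E synthase) by 0.78, and 2 fell, HSD17B8 by 2.75 and HSD17B7 by 0.51.

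Further genes of the superfamily were mostly low. KCNAB2, a potassium channel beta subunit with an aldo-keto reductase fold, fell in MDA-MB-231 by 0.75 with TM and by 0.62 with AMD3100; its CPM averaged 41.0, 24.4 and 26.6 across vehicle, TM and AMD3100 groups. KCNAB3 fell in MDA-MB-231 with bortezomib and AMD3100 by 1.00, and in HCC1937 with TM by 1.45 (adjusted p = 0.0169). AKR7A3 and AKR7L averaged 1.63 and 1.66 CPM in HCC1937 vehicle and 0.198 and 0.152 CPM in MDA-MB-231 vehicle. AKR1C4 had at most 4 counts and AKR1C8 had 0 in any human library.

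Upstream sequence was looked up for 6 of the 7 members, all but AKR1B10, from RefSeq on GRCh38.p14, in windows of 250 bases before to 50 after each start. The core of the antioxidant response element, written TGACNNNGC and searched on both strands, occurred in 13.3% of 35116 such windows. AKR7A2 was the 1 of these 6 members with a match, 3 of them. AKR1A1, AKR1B1, AKR1C1, AKR1C2 and AKR1C3 had none in these windows, which says only that the letters are not there. The 250 bases before the AKR7A2 start, chr1:19312147-19312396 on the minus strand, are shown with the matches in capitals.
AKR7A2: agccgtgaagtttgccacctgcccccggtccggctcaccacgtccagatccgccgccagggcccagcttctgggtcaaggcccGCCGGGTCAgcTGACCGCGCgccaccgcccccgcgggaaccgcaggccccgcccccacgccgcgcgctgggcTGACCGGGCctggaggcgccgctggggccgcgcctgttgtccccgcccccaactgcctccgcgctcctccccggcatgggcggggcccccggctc
The corresponding 250 bases of AKR1C1 and AKR1C2 were 96.46% identical to each other. No match to TGANTCA, the AP-1 motif, which can overlap the former, or to the heat shock element was found in the 6 members; these occurred in 7.71% and 0.49% of windows. TATAAA, in 11.5% of windows, had a match at 1 of the starts listed for AKR1C3.

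The genes whose pattern was most like each member were read off as the highest value of the lower of 2 Pearson correlations of log2 CPM, each over 9 libraries of 1 human line, among 8490 genes with at least 5 CPM. The points share 3 groups and their library depth, so these values are a description. They include HCC1937 AMD3100 replicate 1, where AKR1C1 (3.32 CPM), AKR1B1 (189 CPM) and AKR1C2 (0 counts) stood apart. The correlations were not computed without that library, so they may rest on it. They were RAB9A (0.951), TFG (0.941) and PANX1 (0.940) for AKR1B10, and TPRA1 (0.988), ALDOC (0.981) and ARFIP2 (0.981) for AKR1B1. For AKR1C1 they were RFC5 (0.963), TPT1 (0.959) and GLUL (0.958), and for AKR1A1 GSS (0.969), QARS1 (0.954) and EIF2B5 (0.951). For AKR7A2 they were ILVBL (0.912), SURF1 (0.903) and BIRC5 (0.902). AKR1C2 (RNASET2, 0.807) and AKR1C3 (SLC25A44, 0.804) had no gene above 0.81. The minimum of 5 CPM held for the compared genes, not for the members. The AKR1C2 value rests on 0 to 16 counts a library in MDA-MB-231, where that gene did not pass the low-count filter.

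In 4T1 tumours the orthologues showed no called change. Akr1a1 had 377, 363 and 423 CPM with vehicle, 337, 426 and 384 CPM with bortezomib and TM, and 369, 349 and 372 CPM with bortezomib and AMD3100. Akr7a5 had 26.99, 25.4 and 29.9 CPM, then 30.3, 26.1 and 26.8 CPM, then 23.6, 23.5 and 25.3 CPM in the same groups. The Akr1a1 groups overlapped throughout. The AMD3100 libraries of Akr7a5 all lay below the others, though by as little as 25.3 against 25.4 CPM. Against vehicle, Akr1a1 differed by -0.02 (SE 0.116, adjusted p = 0.984) with TM and -0.09 (SE 0.116, adjusted p = 0.837) with AMD3100, and Akr7a5 by 0.02 (SE 0.125, adjusted p = 0.987) and -0.18 (SE 0.125, adjusted p = 0.681). Between the arms the differences were -0.07 and -0.20, both with adjusted p = 0.996. Akr1b3, the aldose reductase orthologue, had 1 count in all 9 libraries together and was not tested. The table has no row named Akr1b1, a name also used for this gene, so the level of aldose reductase in these tumours cannot be read from it.

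The fit called 0% of 15846 mouse genes in any 4T1 comparison, with 688, 1144 and 454 at an unadjusted p under 0.05 and 3, 16 and 4 called by DESeq2, for TM, AMD3100 and the arms against each other. Of the other 17 mouse genes of the superfamily 11 were tested and none was called. Akr1b8 averaged 43.2, 43.2 and 36.3 CPM across vehicle, TM and AMD3100 groups, and mouse Akr1b10 19.7, 19.7 and 19.1 CPM. Kcnab2 averaged 92.3, 106 and 138 CPM (AMD3100 against vehicle 0.58, adjusted p = 0.634).

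The tumours differed in cell makeup within groups, and in bulk RNA fewer cells of a type and less RNA per cell cannot be told apart. Summed over 6 genes, B cell markers ran from 13.8 to 132 CPM with vehicle, 7.12 to 529 with TM and 8.82 to 762 with AMD3100, and epithelial markers from 1537 to 2354, 1065 to 1919 and 984 to 1261 CPM. Summed macrophage markers were 1603 to 1698, 836 to 1443 and 1032 to 1330 CPM, and fibroblast markers 1919 to 3264, 1550 to 4538 and 2981 to 3413 CPM. Neutrophil markers were 88.8 to 124, 54.1 to 90.7 and 39.2 to 84.0 CPM. The vehicle libraries thus had higher macrophage sums than every treated library and higher epithelial sums than every AMD3100 library, the group in which Akr7a5 was lowest. No marker of these 5 lists was at 0 in all 3 libraries of a group, while 1 or 2 of 6 hepatocyte markers were. The part of cell makeup in the Akr levels was not tested. Of the 4T1 libraries, 1 vehicle library of 4T1 carries a human cell line in other label fields, but its title and column place it in 4T1.

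**Figure D5:**
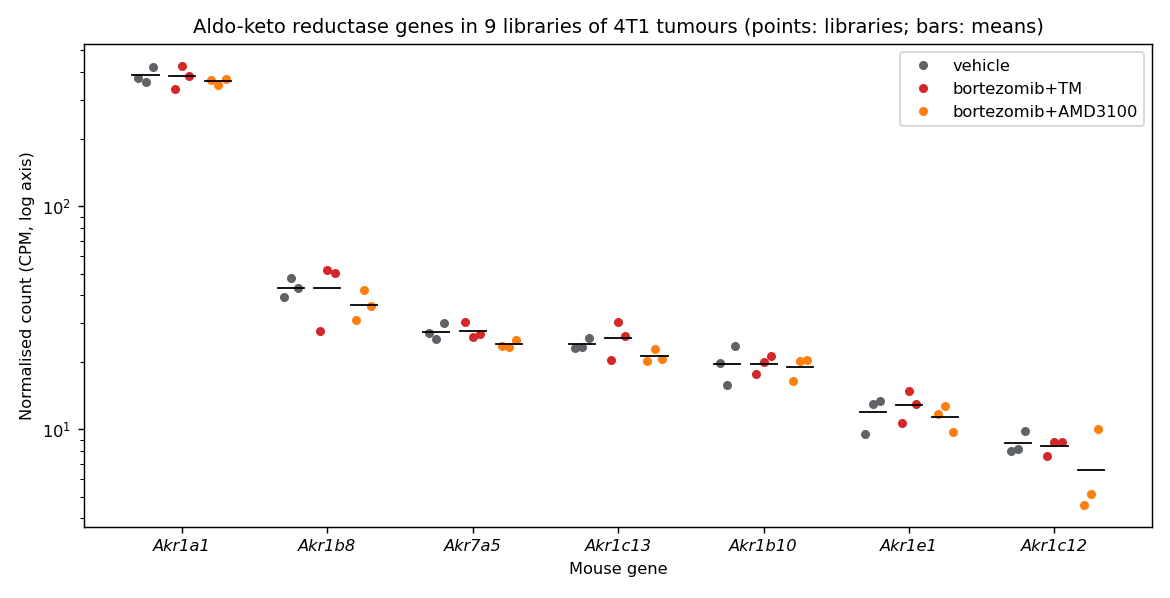
Normalised count (CPM, log axis) of 7 mouse aldo-keto reductase genes in 9 libraries of 4T1 tumours; points are libraries and bars are means of 3. For Akr1a1 the points of the 3 groups overlap between 337 and 426 CPM, and no gene shown was called.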

How the data were processed

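Poly(A) RNA was sequenced as 150-base read pairs, per the labels' protocols. The authors deposited raw counts per gene in 3 tables of 9 libraries, made with featureCounts 2.0.1 on GRCh38 or GRCm38 with MultiQC 1.11, per the submitters' processing notes; the aligner, annotation and strand setting are not given in the sources used here. Symbols were available for 61481 of 78932 human features.

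From the counts, each table was fitted with edgeR 4.0.16 in R 4.3.3 (filterByExpr, TMM scaling, quasi-likelihood test, 1 coefficient per group, no covariate), and the 18 human libraries once more together for comparisons between lines. Benjamini-Hochberg adjustment ran over all genes tested, and called means an adjusted p under 0.05. CPM values use the same scaling. A change is a log2 ratio of fitted counts. Alternatives were DESeq2 1.42.0, median-of-ratios scaling, no filter, a replicate block, the compared groups alone, leaving out each library, and copies summed. The sums were AKR1C1 to AKR1C4, and AKR1B10 with AKR1B15.

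Members and lists were chosen with earlier results of these data known. Named from each other list were the called genes with the smallest p (at most 3) unless the text says otherwise, and for likeness the 3 best genes per member. Gene positions come from GENCODE release 29 and upstream sequences from RefSeq; shared stretches were counted over 150 bases. A protein table and an AKR1B10 upstream entry were not used here.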

Additional observations from a re-analysis of the deposited data

Results flagged for a closer look

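The change against vehicle differed between the human lines in 6 tested cases, by an interaction term of the joint edgeR fit. In the TM arms the log2 change in MDA-MB-231 minus that in HCC1937 was 5.38 for AKR1B10, 3.45 for AKR1C1, 0.91 for AKR1A1 and 0.74 for AKR7A2. In the AMD3100 arms it was 6.42 for AKR1B10 and 2.49 for AKR1C1. With AKR1C1 to AKR1C4 summed, the differences were 1.21 in the TM arms and 1.27 in the AMD3100 arms. In MDA-MB-231 the largest part of that sum is AKR1C3, so it is not a value of AKR1C1 and AKR1C2 alone. AKR1A1 and AKR7A2 fell in HCC1937 with TM, while in MDA-MB-231 AKR1A1 rose and AKR7A2 was not called. Bortezomib was given in the MDA-MB-231 arms only, so line and bortezomib cannot be told apart.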

How the results depend on the processing

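Median-of-ratios scaling turned no member's direction, and moved the median over all genes by under 0.1 on the log2 scale in each comparison. The 6 interaction calls were kept in every leave-out fit. Without AMD3100 replicate 1, 4 members were called in each of the HCC1937 comparisons with TM. For TM against vehicle in HCC1937, 1376 genes were called, 2070 by DESeq2, 718 with a replicate block, 8336 with the 2 groups fitted alone, and 406 to 8318 when 1 library was left out; members called were 3, 1 without the filter, 1 with the block, and 1 to 4 in the leave-out fits. For AMD3100 against TM, 1599 genes were called, 2513 by DESeq2, 725 with the block, 252 alone and 373 to 7442 with 1 library left out; members were 3, 1 with the block, 1 alone and 1 to 4. For AMD3100 against vehicle, 161 genes were called without the filter, 16 by DESeq2 and 0 to 1661 with 1 library left out, against 0. Without the filter 53.5% of the HCC1937 TM calls were higher, against 41.9%.

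In MDA-MB-231 the members called with bortezomib and TM were 3 to 5 with 1 library left out (3 without vehicle replicate 1). Between its arms, 177 genes were called without the filter, 51 by DESeq2 and 0 to 183 with 1 library left out (183 without TM replicate 3), and no member in any. In 4T1, DESeq2 called 3, 16 and 4 genes for TM, AMD3100 and the arms against each other; the AMD3100 groups alone gave 1, and leave-out fits 0 to 1 for TM and 0 to 1 for AMD3100. The TM-arm interaction called 3706 to 7382 genes with 1 library left out, against 4674.

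The signs that turned belong to members that were not called, except AKR1C1 and AKR1C2 between vehicle groups when copies were summed. A summed value below is that of the whole sum, for AKR1C with AKR1C3 in it, set beside each member. On the log2 scale, with copies summed, AKR1C3 was -0.0592 for HCC1937 TM; AKR1B10 -0.0763, and AKR1C1 and AKR1C3 -0.0153, for HCC1937 AMD3100; AKR1C2 and AKR1C3 0.0439 for AMD3100 against TM; AKR1C1 0.13 between the MDA-MB-231 arms; and AKR1C1 and AKR1C2 0.13 between vehicle groups. Without the filter AKR1B10 was -0.0042 for HCC1937 AMD3100 and AKR1A1 -0.0066 between vehicle groups. With 1 library left out, HCC1937 AMD3100 against vehicle ran from -0.19 to 0.32 for AKR1B10, -0.0566 to 0.117 for AKR1A1, -0.225 to 0.0553 for AKR1B1, -0.48 to 0.60 for AKR1C1 and -0.0231 to 0.0697 for AKR7A2. AMD3100 against TM ran from -0.0110 to 1.07 for AKR1C1, -0.95 to 0.23 for AKR1C2 and -0.34 to 0.11 for AKR1C3. In MDA-MB-231, AKR7A2 with TM ran from -0.0335 to 0.236 and AKR1C1 between arms from -0.370 to 0.0159. In 4T1, Akr1a1 ran from -0.105 to 0.0695 and Akr7a5 from -0.0480 to 0.0809 with TM, and Akr1a1 from -0.176 to 0.0115 between arms. Between vehicle groups AKR1A1 ran from -0.00549 to 0.106 and AKR1B1 from -0.0945 to 0.0178, and AKR1C2 in the AMD3100-arm interaction from -0.0884 to 2.08. The cause was not tested.

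Replicate numbers are shared by the groups, but correlations between deviations of same-numbered libraries lay within the range of differently numbered ones. They ran from -0.0374 to 0.0368 in HCC1937, -0.324 to 0.287 in MDA-MB-231 and -0.468 to 0.597 in 4T1. For different numbers they ran from -0.0481 to 0.0516, -0.351 to 0.308 and -0.631 to 0.663. Only these ranges were compared. With the replicate block, HCC1937 AKR1B10 under TM was 1.39 (adjusted p = 0.115) and AKR1A1 -0.49 (adjusted p = 0.0764) by edgeR, and against AMD3100 -1.34 (adjusted p = 0.117) and 0.51 (adjusted p = 0.0630). Low counts limit AKR1C1, AKR1C2 and AKR1B10, whose vehicle counts in MDA-MB-231 were 16 or fewer a library.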
